A study of Mus musculus with 6 samples.

Results

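Mitochondrial ribosomal proteins are the protein parts of the mitochondrial ribosome, and their genes carry names that begin with Mrpl for the large subunit and Mrps for the small subunit. The genes described here were those whose name on the array began with Mrpl or Mrps followed by a digit. The rule took 101 probes of the 55661 gene probes on the array, which stand for 76 genes, 47 of the large subunit and 29 of the small subunit by name. After the filter on dim probes, 75 of these genes remained among the 22991 genes tested.

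Messenger RNA was measured in hearts of male C57BL/6 mice, 8 weeks old, on 1-colour Agilent arrays. All mice had a myocardial infarction made by ligation of the left anterior descending coronary artery. In the antagomir group, 3 arrays, 80 mg/kg of an antagomir against miR-433 was injected into the tail vein on 3 consecutive days; in the control group, 3 arrays, a scrambled sequence was given in the same way. Hearts were taken 21 days after the infarction, and the study asked whether blocking this microRNA limits fibrosis of the heart. Nothing in the labels ties each array to its own mouse or to a region of the heart, so p-values measure the spread between these 3 and 3 samples, which may be technical. In whole tissue, fewer cells of a type and less RNA per cell cannot be told apart.

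Mitochondria keep a small genome of their own that encodes core subunits of the respiratory chain, and the mitochondrial ribosome translates only those few messages, anchored to the inner membrane. Its RNA comes from mitochondrial DNA, but all of its proteins are encoded in the nucleus, made in the cytosol and imported. Cardiac muscle is among the tissues richest in mitochondria, and inherited defects in several of these proteins are known to cause cardiomyopathy.

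An antagomir is a chemically modified RNA that pairs with a microRNA and blocks it. The mature 3p strand of miR-433 is shown because it names the treatment. It lies on the plus strand at chr12:109591781-109591802 in GRCm38.p6, the build of the RefSeq table used for it, and the capitals mark its seed, bases 2 to 8.
mmu-miR-433-3p: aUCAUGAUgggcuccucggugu
The 7 letters complementary to that seed, ATCATGA, were found in 0 of the 101 member probes and in 287 of all 55661 probes (0.516%). A probe is a short piece of a transcript, so this says nothing of the rest of these transcripts.

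On every array 59305 spots carried gene probes, none of them saturated. Of these spots, the share above background ran from 57.69% to 58.53% on the control arrays, was 55.23% and 56.21% on antagomir arrays 1 and 2, and was 73.58% on antagomir array 3, which stands apart. Levels are log2 signal minus the array's 75th percentile of gene probes, so a level of 0 is the signal of that percentile. Cardiomyocyte markers were well measured (10 of 10 tested), with the myosin heavy chain gene Myh6 at levels between 9.07 and 9.32 on the 6 arrays. All 6 arrays lay on 1 slide scanned once, with control arrays 1 and 2 in slide row 1 and all others in row 2.

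All 75 tested genes had a higher mean on the antagomir arrays than on the control arrays with the 75th-percentile scaling. All 75 had a lower mean when arrays were scaled to their medians instead, where only 13% of all genes were higher. None passed the test (limma, Benjamini-Hochberg adjusted p under 0.05 over all genes; lowest adjusted p among members 0.691), against 3 of 22991 genes (0.013%). At an unadjusted p under 0.05 the count was again 0 of 75, against 1658 of all genes (7.21%), 702 of them higher (3.05%), and the lowest unadjusted limma p was 0.0733. The median difference, antagomir minus control, was 0.25 on the log2 scale, a 1.19-fold change, with a median standard error of 0.19 for a single gene. Differences ran from 0.05 to 0.45, and 62.6% of all genes tested were also higher, with a median of 0.09.

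The change of scaling moved every gene by the same amount: the median over all genes went from 0.09 to -0.38 with median scaling. Relative to that median, the members stood 0.16 higher under both scalings and 0.20 higher under quantile scaling, where 71 of 75 members and 45.8% of all genes were higher and the median of all genes was -0.03.

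**Figure D1:**
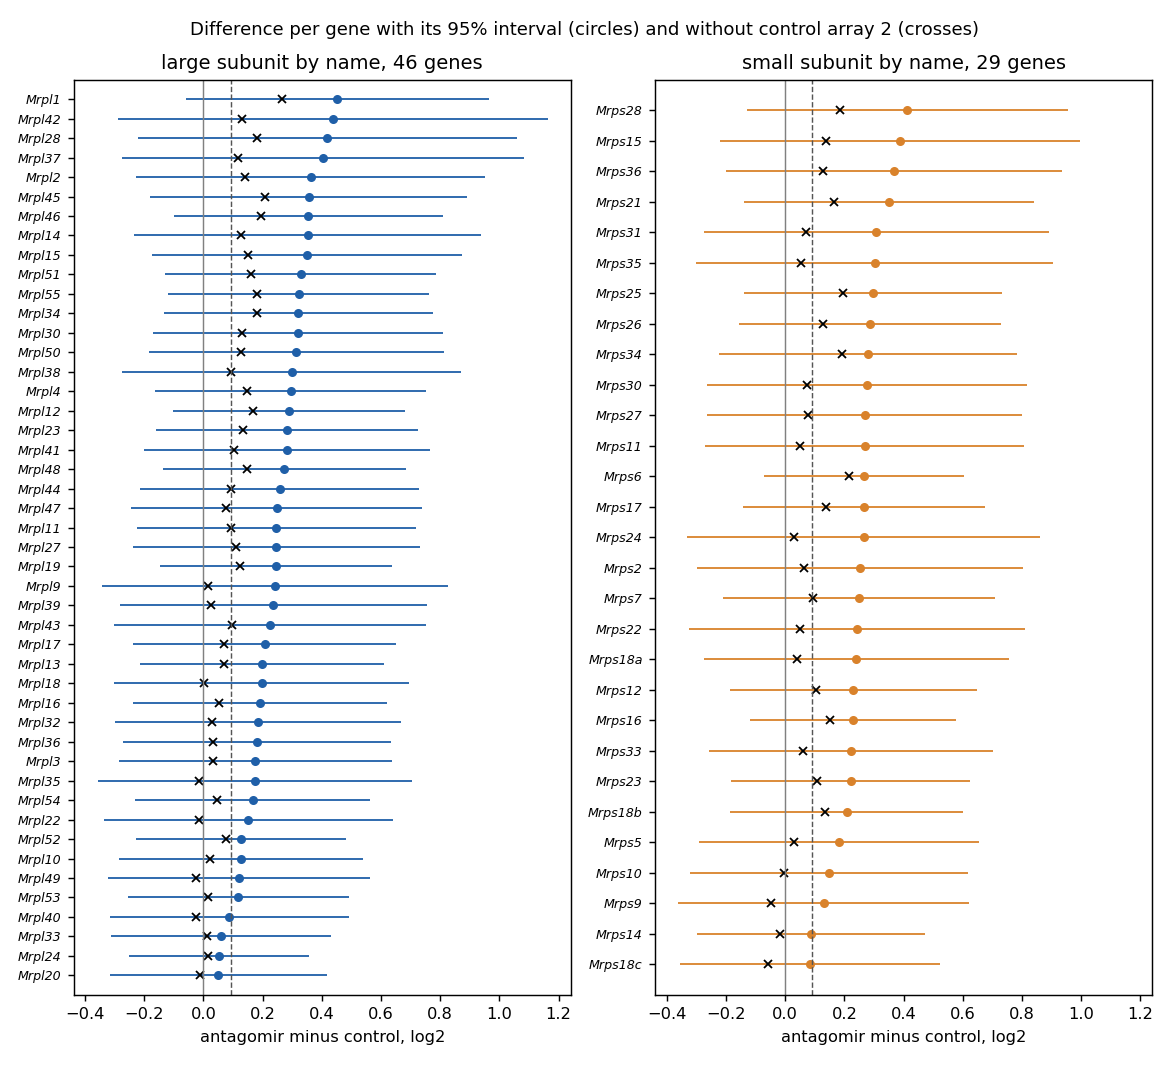
Difference between antagomir and control arrays for each of the 75 tested genes, as log2 antagomir minus control on the horizontal axis with 95% intervals from limma, large and small subunit genes apart. All points lie between 0.05 and 0.45 with 75th-percentile scaling, every interval includes 0, and the dashed line is the median of all genes, 0.09. With median scaling all points fall below 0, where only 13% of all genes were higher.

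The difference was not even over the arrays, and control array 2 stood apart from the other controls. With each gene set to 0 at its own control mean, the mean over the 75 genes came to 0.13, -0.32 and 0.19 on the controls, in the order of their numbers, and to 0.33, 0.29 and 0.12 on the antagomir arrays. The control arrays had a mean of 0 by construction and an SD of 0.28 (n = 3), and the antagomir arrays had a mean of 0.25 ± 0.11 (SD, n = 3). Antagomir array 3 therefore lay below 2 of the 3 control arrays, and the groups overlapped.

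Control array 2 was the lowest of the 6 arrays for 74 of the 75 genes, against 36.7% of all genes. The exception was Mrpl33, lowest on antagomir array 3. Antagomir array 1 was the highest for 37 genes and antagomir array 2 for 36, together 73 of 75, against 43.3% of all genes. Without control array 2, 66 of 75 members were higher, against 60.4% of all genes, and the members' median difference was 0.09 against 0.05 for all genes. Leaving out control array 2 and antagomir array 3 together, an alternative chosen after the data were seen, left 73 of 75 members higher (54.4% of all genes), with a median of 0.17 against 0.03.

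The slide row was not balanced between groups. With the row as a block, a fit in which control array 3 is the only control set directly against antagomir arrays, 58 of 75 members were higher, against 55.3% of all genes, and the members' median stood 0.04 above that of all genes. The part of the slide row, and of control array 2, in the difference was not tested.

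**Figure D2:**
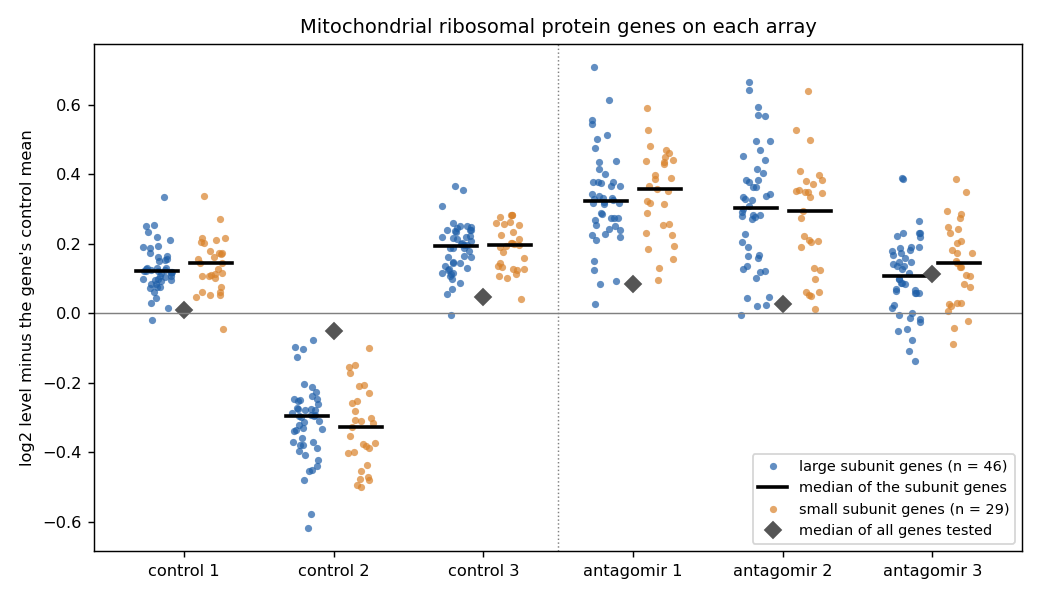
Level of each of the 75 genes on each of the 6 arrays, in log2 units relative to that gene's control mean, large and small subunit apart. Control array 2 is the lowest array for 74 genes, and antagomir arrays 1 and 2 are the highest for 73, while antagomir array 3 overlaps control arrays 1 and 3.

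In 12 genes every antagomir array was above every control array, 7 of the large and 5 of the small subunit, where 2019 of all genes (8.78%) had this pattern. The 12 were Mrpl1, Mrpl12, Mrpl19, Mrpl30, Mrpl46, Mrpl51, Mrpl55, Mrps6, Mrps16, Mrps26, Mrps28 and Mrps36, and they are listed here because of that pattern, after their values were seen. Since 62.6% of all genes were higher and control array 2 was low for nearly all members, nothing is read from this count.

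The large subunit carries the peptidyl transferase centre, the tunnel through which the new protein leaves, and a pair of mobile stalks. Its 46 tested genes had a median difference of 0.25, and all 46 were higher with the 75th-percentile scaling. With median scaling none of the 46 was higher, against 13% of all genes, and their median was -0.22. Without control array 2 the median was 0.09 and 41 of 46 genes were higher.

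Mrpl1 belongs to the stalk by which the spent transfer RNA leaves the ribosome. Its probe lies at chr5:96667890-96667949 on the plus strand of mm9, the build of all probe positions here. Control arrays 1, 2 and 3, the order kept below, read 1.00, 0.50 and 1.11, and the antagomir arrays in the same order read 1.20, 1.51 and 1.26. The groups did not overlap, and control array 2 was the lowest by a wide margin. The difference was 0.45 ± 0.21 (SE), the largest of all members, with a 95% interval from -0.06 to 0.96 (limma adjusted p = 0.691). Without control array 2 it was 0.27.

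The other stalk recruits the translation factors, and Mrpl12 forms its mobile arm, held on the ribosome by Mrpl10 at a base that Mrpl11 completes. Mrpl12 has also been described as a partner of the mitochondrial RNA polymerase. Its probe lies at chr11:120349740-120349799 on the plus strand. Mrpl12 stood at 6.45, 6.09 and 6.47 on the control arrays and at 6.66, 6.70 and 6.53 on the antagomir arrays. Its groups did not overlap, and antagomir array 3 was nearest to the controls. The difference was 0.29 ± 0.16 (SE; limma adjusted p = 0.691), and 0.17 without control array 2.

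Mrpl11 stood at 5.73, 5.30 and 5.80 on the control arrays and at 5.88, 6.02 and 5.67 on the antagomir arrays. Antagomir array 3 fell below control arrays 1 and 3, so the groups overlapped, with a difference of 0.25 ± 0.19 (SE). Mrpl10 stood at 3.42, 3.11 and 3.44 on the control arrays and at 3.66, 3.35 and 3.35 on the antagomir arrays. Antagomir arrays 2 and 3 lay between control array 2 and the other controls, and the difference was 0.13 ± 0.17 (SE), or 0.02 without control array 2. The limma adjusted p was 0.695 for Mrpl11 and 0.791 for Mrpl10.

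Around the peptidyl transferase centre, where amino acids are joined, 4 proteins were described: Mrpl2, Mrpl3, Mrpl16 and Mrpl27. Mrpl2 stood at 6.18, 5.55 and 6.24 on the control arrays and at 6.36, 6.58 and 6.12 on the antagomir arrays. Its difference of 0.36 ± 0.24 (SE) was the largest of these 4, though antagomir array 3 lay below control arrays 1 and 3. Mrpl3, in which mutations cause a mitochondrial cardiomyopathy, stood at 5.20, 4.68 and 5.02 on the control arrays and at 5.21, 5.27 and 4.95 on the antagomir arrays. Its groups overlapped, with a difference of 0.17 ± 0.19 (SE), and 0.03 without control array 2. Mrpl27 differed by 0.25 ± 0.20 (SE) and Mrpl16 by 0.19 ± 0.17 (SE).

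At the tunnel exit, Mrpl23 and Mrpl24 line the opening and Mrpl45 ties the ribosome to the inner membrane. Mrpl45 stood at 4.15, 3.78 and 4.29 on the control arrays and at 4.39, 4.74 and 4.16 on the antagomir arrays. Antagomir array 2 was the highest and antagomir array 3 lay among the controls, with a difference of 0.36 ± 0.22 (SE; limma adjusted p = 0.691) and 0.21 without control array 2. Mrpl23 differed by 0.28 ± 0.18 (SE). Mrpl24 lay within a narrow band, at 4.68, 4.52 and 4.59 on the control arrays and 4.62, 4.64 and 4.68 on the antagomir arrays. Its difference was 0.05 ± 0.12 (SE), among the 2 smallest of the large subunit, and it was below 0 with quantile scaling.

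Proteins added to the large subunit in mitochondria, with no bacterial counterpart, showed the same array pattern. Mrpl44, whose ribonuclease III-like fold sits on the surface and in which mutations cause cardiomyopathy, stood at 3.88, 3.39 and 3.90 on the control arrays and at 4.10, 4.03 and 3.82 on the antagomir arrays. The difference was 0.26 ± 0.19 (SE), with antagomir array 3 below control arrays 1 and 3. Mrpl42 had the second largest difference of the large subunit, 0.44, with the wide SE of 0.30. Its levels were 5.23, 4.36 and 5.35 on the control arrays and 5.54, 5.55 and 5.17 on the antagomir arrays, so antagomir array 3 lay below control arrays 1 and 3, and without control array 2 the difference was 0.13. Mrpl41 differed by 0.28 ± 0.20 (SE).

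Of these mitochondria-specific proteins, Mrpl46 and Mrpl51 had groups that did not overlap. Mrpl46 stood at 3.27, 2.74 and 3.17 on the control arrays and at 3.46, 3.50 and 3.28 on the antagomir arrays. The lowest antagomir array was almost level with the highest control array, and the difference was 0.35 ± 0.19 (SE). Mrpl51 differed by 0.33 ± 0.19 (SE; limma adjusted p = 0.691). Mrpl55, which has a bacterial counterpart, also had groups that did not overlap and differed by 0.32 ± 0.18 (SE; limma adjusted p = 0.691).

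At the low end of the large subunit were Mrpl20 and Mrpl33. Mrpl20 stood at 5.72, 5.61 and 5.88 on the control arrays and at 5.83, 5.90 and 5.63 on the antagomir arrays, with a difference of 0.05 ± 0.15 (SE). Mrpl33 stood at 7.24, 7.12 and 7.28 on the control arrays and at 7.30, 7.44 and 7.07 on the antagomir arrays, with a difference of 0.06 ± 0.15 (SE). In both genes the antagomir arrays spread over the range of the control arrays, and both differences were below 0 with quantile scaling. Mrpl35 differed by 0.17 ± 0.22 (SE), and by -0.02 without control array 2.

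The small subunit reads the message. Its 29 genes by name had a median difference of 0.26, and all 29 were higher with the 75th-percentile scaling. With median scaling none of the 29 was higher, against 13% of all genes, and their median was -0.21. Without control array 2 the median was 0.08 and 25 of 29 were higher.

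Mrps12 sits at the decoding centre, where codon and anticodon are matched. It stood at 5.62, 5.22 and 5.58 on the control arrays and at 5.86, 5.66 and 5.58 on the antagomir arrays. Antagomir array 3 was level with control array 3, and the difference was 0.23 ± 0.17 (SE; limma adjusted p = 0.693). Among other core proteins shared with bacteria, Mrps7 differed by 0.25 ± 0.19 (SE), Mrps2 by 0.25 ± 0.23 (SE) and Mrps5 by 0.18 ± 0.19 (SE).

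Mrps28 had the largest difference of the small subunit, 0.41 ± 0.22 (SE), with a probe at chr3:8802222-8802281 on the minus strand. It stood at 5.32, 4.70 and 5.43 on the control arrays and at 5.62, 5.53 and 5.53 on the antagomir arrays. The antagomir arrays lay close together, just above control arrays 1 and 3, and without control array 2 the difference was 0.19. Mrps6 had the smallest unadjusted limma p of the small subunit, 0.103. Its levels were 4.74, 4.69 and 4.93 on the control arrays and 5.14, 5.06 and 4.96 on the antagomir arrays. Control array 2 was close to control array 1 here, and the difference of 0.27 ± 0.14 (SE) was 0.22 without it.

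Mrps16 stood at 5.73, 5.52 and 5.78 on the control arrays and at 5.83, 6.02 and 5.86 on the antagomir arrays. Its groups did not overlap, with a difference of 0.23 ± 0.14 (SE). Mrps15 had the second largest difference of the small subunit, 0.39 ± 0.25 (SE), and 0.14 without control array 2. Mrps21 differed by 0.35 ± 0.20 (SE). Mrps14 had 1 of the 2 smallest differences, 0.09 ± 0.16 (SE), and -0.02 without control array 2.

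Mrps22 is a mitochondria-specific protein in which mutations cause cardiomyopathy with lactic acidosis. It stood at 2.74, 2.18 and 2.78 on the control arrays and at 2.82, 3.07 and 2.54 on the antagomir arrays, with a difference of 0.24 ± 0.23 (SE). Antagomir array 3 lay below control arrays 1 and 3. Mrps34 differed by 0.28 ± 0.21 (SE), Mrps27, a pentatricopeptide-repeat RNA-binding protein, by 0.27 ± 0.22 (SE) and Mrps23 by 0.22 ± 0.17 (SE). The 10 small-subunit proteins without a bacterial counterpart lay close together, from 0.21 to 0.31.

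Names and places in the ribosome differ for a few members. The paralogs Mrps18a, Mrps18b and Mrps18c share an ancestor, and in structures of the mammalian ribosome Mrps18a is found in the large subunit and the other two in the small. Mrps18a stood at 5.13, 4.46 and 4.98 on the control arrays and at 5.22, 5.08 and 4.99 on the antagomir arrays, a difference of 0.24 ± 0.21 (SE). Mrps18b stood at 4.97, 4.72 and 4.91 on the control arrays and at 5.05, 5.28 and 4.89 on the antagomir arrays, a difference of 0.21 ± 0.16 (SE).

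Mrps18c stood at 4.51, 4.07 and 4.48 on the control arrays and at 4.48, 4.56 and 4.26 on the antagomir arrays. It had the smallest difference of the small subunit, 0.08 ± 0.18 (SE), and -0.06 without control array 2. Mrps30, also a large-subunit protein by structure, differed by 0.28 ± 0.22 (SE). Mrps36 is now known as a component of the 2-oxoglutarate dehydrogenase complex rather than of the ribosome. It stood at 5.77, 5.08 and 5.84 on the control arrays and at 6.00, 5.94 and 5.85 on the antagomir arrays, without overlap, a difference of 0.37 ± 0.23 (SE) that was 0.13 without control array 2.

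Large and small subunit genes stood at nearly the same relative level on each array. Large minus small, as the mean over each subunit's genes relative to their control means, was -0.0102, 0.0151 and -0.0049 on the control arrays (SD 0.0133) and -0.0142, 0.0301 and -0.0351 on the antagomir arrays (SD 0.0333). The antagomir mean was -0.0064, less than the SD of either group. Subtracting 1 number from all genes of an array, as percentile and median scaling do, leaves this value as it is. With members assigned by structure, 48 to the large and 26 to the small subunit, the medians were 0.25 and 0.26 and the antagomir mean of large minus small was -0.0011.

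The split by ancestry was as narrow. The 29 large-subunit proteins with a bacterial counterpart had a median of 0.25 and the 19 without a median of 0.27. In the small subunit the medians were 0.25 for 16 proteins with a counterpart and 0.27 for 10 without. Each lies within the SD of 0.09 among the members.

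**Figure D3:**
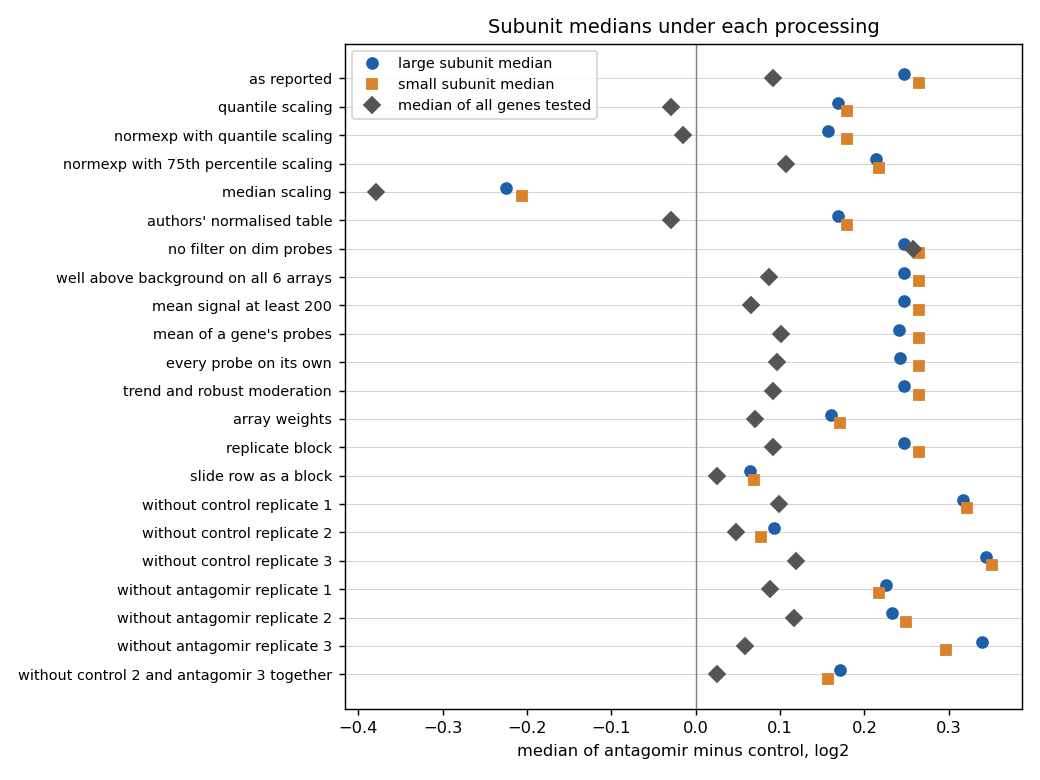
Median log2 difference, antagomir minus control, of the large-subunit genes, the small-subunit genes and all genes tested, under each way of processing. Both subunits lie together under every setting shown, at 0.25 and 0.26 in the reported setting, at 0.09 and 0.08 without control array 2 and at -0.22 and -0.21 with median scaling.

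Several members were measured by more than 1 probe. Of 99 tested member probes, all well above background on all 6 arrays, 97 were higher on the antagomir arrays. The probes of 23 genes could be compared, and their differences spanned a median range of 0.05. In 2 genes they differed in sign: the brighter Mrpl15 probe gave 0.35 and the dimmer -0.25, and the brighter Mrps25 probe gave 0.30 and the dimmer -0.03. The gene left out, Mrpl21, has 1 probe, which was not well above background on any control array and was above it on antagomir array 3 alone, where its level was -2.86 against -5.94 to -7.19 elsewhere, so no fold is given.

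The start sites of these genes hold motifs known from housekeeping and mitochondrial genes. RefSeq promoter windows on GRCm38.p6, from 250 bases before to 50 after a gene's start, were found for 67 of the 76 genes, 73 windows in all. The ETS motif CCGGAAG, bound by the family that includes GABPA, was in 24 of them (32.9%), against 8.86% of all 32851 windows and 11.6% of windows of protein-coding genes. The NRF1 motif was in 12 (16.4%, against 4.6% and 6.38%), and the YY1 motif AAGATGGCG in 8 (11%, against 1.4% and 1.83%). Motifs were searched on both strands, 3 genes held the ETS and the NRF1 motif, and in 2 windows different motifs overlapped.

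Other motifs were less set apart. The SP1 motif GGGCGG was in 52.1% of member windows against 46.2% of coding windows, the E-box CACGTG in 9.59% against 7.84%, and the cyclic AMP response element TGACGTCA in 2.74% against 2.23%. The TATA box TATAAA was in 6.85% against 12.6%, and the ERR motif TCAAGGTCA was in none. The median ratio of observed to expected CpG was 0.82 in member windows and 0.567 in coding windows. The ETS, NRF1 and YY1 motifs each contain CG, and the windows compared were not matched for CpG. The part of CpG content in the motif shares was not tested. A match is a description of these letters, not a binding site.

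The 150 bases before the start are shown for 5 members, picked because they hold a motif and overlap no other gene. Only matches of the ETS, NRF1 and YY1 motifs are in capitals, and those of other motifs, such as SP1, are in lower case. Mrpl12 (chr11:120484487-120484636, plus strand) and Mrpl17 (chr7:105811088-105811237, minus strand) hold the NRF1 motif, which begins at position -81 and -49 from the start. Mrpl3 (chr9:105053118-105053267, plus strand), Mrps22 (chr9:98601680-98601829, minus strand) and Mrps18a (chr17:46110854-46111003, plus strand) hold the ETS motif, at -19, -11 and -26.
Mrpl12: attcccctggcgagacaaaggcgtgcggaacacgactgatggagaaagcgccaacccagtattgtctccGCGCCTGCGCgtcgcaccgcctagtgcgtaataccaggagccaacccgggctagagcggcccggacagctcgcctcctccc
Mrpl17: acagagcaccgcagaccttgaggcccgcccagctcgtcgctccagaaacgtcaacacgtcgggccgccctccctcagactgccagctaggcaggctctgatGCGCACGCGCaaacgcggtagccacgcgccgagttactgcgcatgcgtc
Mrpl3: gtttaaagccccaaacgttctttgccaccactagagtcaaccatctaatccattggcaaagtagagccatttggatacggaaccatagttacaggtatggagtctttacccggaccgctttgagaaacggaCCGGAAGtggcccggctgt
Mrps22: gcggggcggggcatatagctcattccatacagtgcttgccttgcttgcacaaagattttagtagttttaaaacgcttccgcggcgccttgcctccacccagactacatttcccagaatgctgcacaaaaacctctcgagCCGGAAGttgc
Mrps18a: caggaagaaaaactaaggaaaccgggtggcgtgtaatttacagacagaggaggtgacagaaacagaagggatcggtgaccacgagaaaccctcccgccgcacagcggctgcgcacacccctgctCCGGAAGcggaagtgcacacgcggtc
Genes with and without a motif did not separate by their difference: the median was 0.22 with and 0.27 without the ETS motif, and 0.27 with and 0.25 without the NRF1 motif, against an SD of 0.09 among members.

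Many of these genes start back to back with a neighbour. A protein-coding gene began within 1000 bases on the opposite strand for 23 of the 67 genes (34.3%), against 8.48% of protein-coding genes. Mrpl46 and Mrps11, a large and a small subunit gene, share such a start with 42 bases from start to start. The stretch between them, at chr7:78783090-78783130 of GRCm38.p6 on the plus strand, is shown whole in lower case.
Mrpl46 and Mrps11: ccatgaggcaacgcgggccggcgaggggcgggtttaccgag
Mrps11 stood at 2.07, 1.46 and 2.16 on the control arrays and at 2.30, 2.10 and 2.10 on the antagomir arrays, a difference of 0.27 ± 0.22 (SE) beside 0.35 for Mrpl46. In both, control array 2 was the lowest.

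The other partners were 21 tested genes that are not ribosomal members. Of these, 18 were higher and 3 lower on the antagomir arrays, against 62.6% of all genes higher, with a median of 0.19 and 0 at an unadjusted limma p under 0.05. Those with a known mitochondrial role were Twnk, the mitochondrial DNA helicase beside Mrpl43 (0.51 ± 0.26, SE), Ptcd2, an RNA-processing protein beside Mrps27 (0.45 ± 0.19, SE), Ndufb5, a complex I subunit beside Mrpl47 (0.39 ± 0.19, SE), and Sars2, the mitochondrial seryl-tRNA synthetase beside Mrps12 (0.20 ± 0.22, SE).

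Genes that work with the ribosome were read from lists, and no gene of any list passed the adjusted threshold. Ribosomal proteins of mitochondria that carry other names were higher in 7 of 7, with a median of 0.27. Gadd45gip1, a large-subunit protein, differed by 0.32 ± 0.22 (SE). Assembly factors, which fold and modify the ribosomal RNA, were higher in 24 of 25 (median 0.21), among them the 2'-O-methyltransferase Mrm3 at 0.39 ± 0.20 (SE). Translation factors were higher in 13 of 15 (median 0.22), with the elongation factor Gfm1 at 0.33 ± 0.21 (SE), and mitochondrial tRNA synthetases in 20 of 20 (median 0.20), with Iars2 at 0.38 ± 0.16 (SE).

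Genes that maintain and transcribe mitochondrial DNA were higher in 23 of 23 (median 0.27), and those of protein import in 24 of 24 (median 0.22). Nuclear regulators of mitochondrial genes were higher in 8 of 10 (median 0.15), with the orphan receptor Esrra at 0.41 ± 0.22 (SE). In these lists control array 2 was again the lowest of the 6 for most genes, 21 of 23, 23 of 24 and 6 of 10. These counts are for the 75th-percentile scaling, which also placed 62.6% of all genes higher.

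The respiratory chain holds the products of this ribosome beside subunits encoded in the nucleus. Its nuclear subunits were higher in 51 of 51, with a median of 0.33, and 0.17 without control array 2. In 27 of 51 the groups did not overlap, against 8.78% of all genes. Cox5a, a complex IV subunit, alone of the nuclear subunits was below the unadjusted threshold. Its level stood at 8.86, 8.60 and 8.93 on the control arrays and at 9.16, 9.16 and 9.21 on the antagomir arrays, a difference of 0.38 ± 0.14 (SE; limma unadjusted p = 0.0378, adjusted p = 0.674). The subunits encoded in mitochondrial DNA, a list added after the data were seen, were higher in 12 of 12 with a median of 0.25, and 0.17 without control array 2. All these values are for the 75th-percentile scaling. With median scaling the median of all genes went from 0.09 to -0.38, and every gene moved alike. The direction in both lists, and the count without overlap, therefore depend on the scaling. The highest differences were 0.47 for the nuclear and 0.40 for the mitochondrially encoded subunits.

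Cytosolic ribosomal proteins, which build the cell's other ribosome, had another array pattern. Of 78 tested, 68 were higher, with a median of 0.10 beside 0.09 for all genes. Their mean relative level was -0.03, -0.03 and 0.06 on the control arrays and 0.09, 0.17 and -0.01 on the antagomir arrays. Control array 2 was level with control array 1 in the list mean and was the lowest for 34 of 78 genes, against 74 of 75 of the mitochondrial ribosomal genes.

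The list of mitochondrial stress response genes had 8 higher and 9 lower of 17, with a median of -0.16 and a range from -2.14 to 0.42. On control array 2 the mean relative level of the list was 0.25 and the median 0.07. That array was the lowest for 6 of 17 genes, near the share of 36.7% over all genes. The largest difference of the list was Gdf15, a secreted stress cytokine, at 0.07, 3.42 and 0.24 on the control arrays and -1.24, -0.88 and -0.57 on the antagomir arrays. Control array 2 was far above the other 5 arrays, and the difference was -2.14 ± 0.91 (SE; limma adjusted p = 0.691).

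Markers of cell types differed between the same arrays. Cardiomyocyte markers were higher in 10 of 10 (median 0.20), against 62.6% of all genes. Their list means were 0.08, -0.21 and 0.12 on the control arrays and 0.27, 0.14 and 0.26 on the antagomir arrays. Fibroblast markers were lower in 10 of 10 (median -1.88), against 8590 of all 22991 genes. At an unadjusted limma p under 0.05, 6 of the 10 were lower, against 956 of all 22991 genes. These were the matrix genes Col3a1, Col1a2, Col1a1, Postn, Fn1 and Lum. The rest of the list was not below that threshold. Dcn was level (-0.0016 ± 0.17, SE), and Pdgfra, Tcf21 and Thy1 differed by -0.35, -0.53 and -0.55. The fibroblast list means were -0.07, 0.40 and -0.33 on the control arrays and -1.94, -1.20 and -2.14 on the antagomir arrays. Control array 2, lowest for the ribosomal genes, was thus the lowest in the cardiomyocyte and the highest in the fibroblast list.

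Among the other cell types, smooth muscle and pericyte markers were lower in 6 of 8 (median -0.56), endothelial markers in 7 of 8 (median -0.11) and macrophage markers in 8 of 9 (median -0.11). Adipocyte markers were higher in 7 of 7 (median 2.83), atrial markers in 4 of 6 (median 1.84) and lymphocyte markers in 4 of 7 (median 0.08), against 62.6% of all genes. Some of these genes were dim, so the medians are not read as folds. On control array 1 Plin1, Retn, Cidec and Adipoq read -6.45, -6.78, -7.15 and -5.88. Plin1 and Cd3g were well above background on 4 arrays and Ms4a1 on 3. Of the adipocyte genes above it on all 6, Fabp4 and Pparg differed by 0.24 and 0.14, and Cfd by 3.20. Adipocyte list means were -1.84, -0.03 and 1.88 on the control arrays and 1.09, 2.95 and 2.85 on the antagomir arrays. Atrial list means were -0.84, -0.34 and 1.18 on the control arrays and -0.52, 2.74 and 3.77 on the antagomir arrays. In both lists antagomir array 1 lay below control array 3, so the groups overlapped. The part of cell makeup in the values of the ribosomal genes was not tested.

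**Figure D4:**
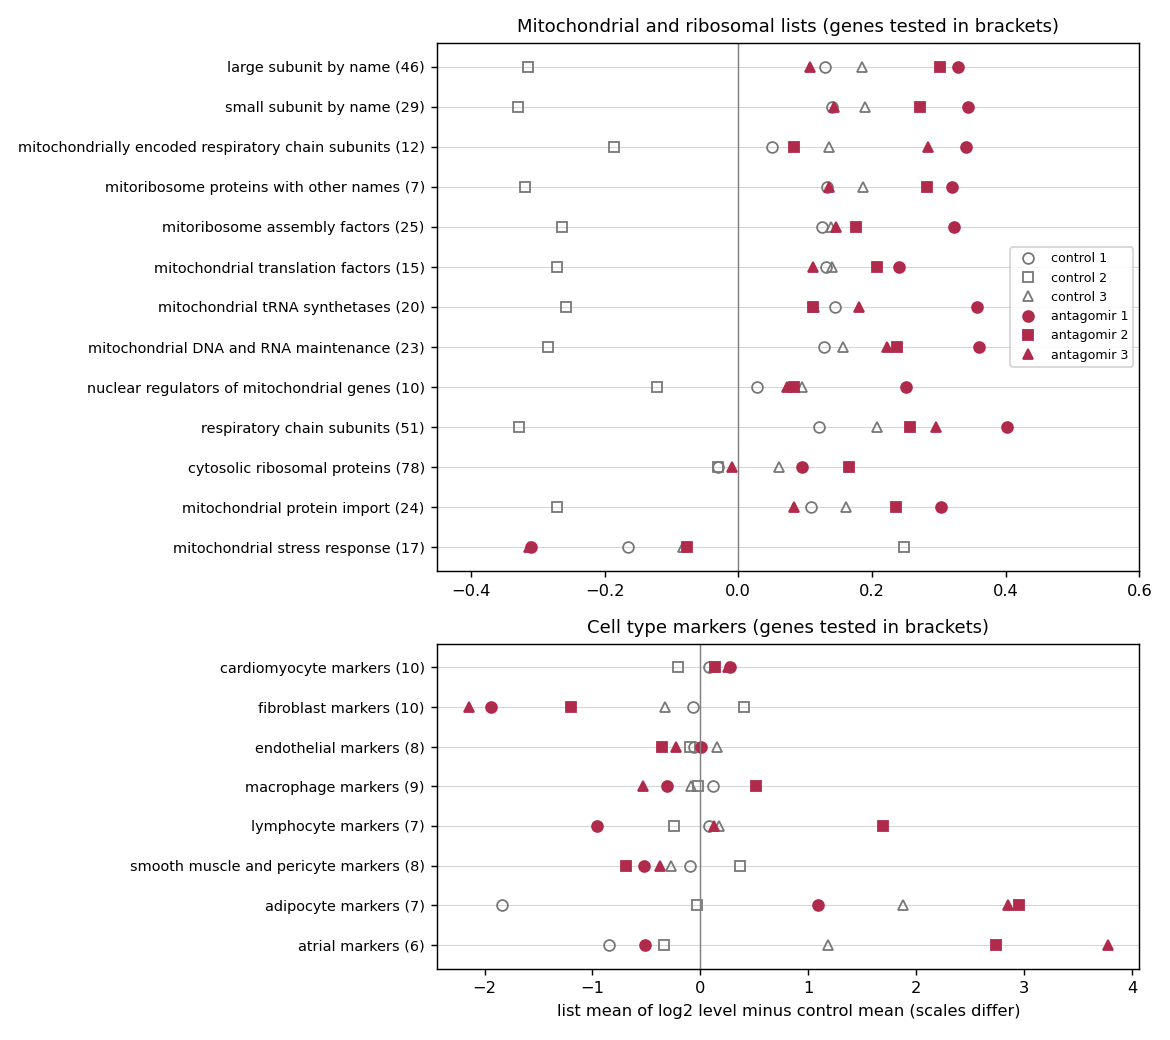
Mean level of each gene list on each array, in log2 units relative to each gene's control mean, with control arrays as open and antagomir arrays as filled symbols; the lower panel has a wider scale. Control array 2 lies far left for the mitochondrial lists, at -0.32 over all mitochondrial ribosomal genes, and far right for stress response and fibroblast markers, while it lies at -0.03 for cytosolic ribosomal proteins. For stress response the list median on that array is 0.07.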

How the data were processed

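Total heart RNA was labelled with Cy3 and hybridised to 6 arrays, 3 a group. Signals were extracted with Agilent Feature Extraction 10.7.1.1, per the headers of the deposited scanner files, which hold its background-corrected, linear intensity per spot. A table the authors deposited holds their log2 normalised values, whose columns agreed closely in distribution (largest spread between sorted columns 0.00143), and was used as an alternative. The intensity was taken to log2, averaged over a probe's spots and scaled by subtracting each array's 75th percentile of gene probes, with control and outlier spots left out. A probe was kept where at least 3 of the 6 arrays had it well above background, and the probe with the highest mean stood for its gene. The antagomir and control arrays entered a limma fit (version 3.58.1, R 4.3.3, with lmFit and eBayes, two-sided, Benjamini-Hochberg over 22991 genes). On simulated data the fit called 21.2% of 2-fold and 74% of 4-fold changes at an adjusted p under 0.05. Changes as small as the members' median of 1.19-fold were not simulated. Genes varied independently in the simulation, whereas on these arrays control array 2 was low for nearly all members. Promoters and motifs were read in Python 3.11.15.

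The members and lists were chosen with earlier results of these data known. Named members were those with a described role, the smallest p, the largest and smallest differences of each subunit, and the highest and lowest levels. Up to 3 genes a list were named by p. Further genes of the fibroblast, adipocyte and lymphocyte lists were named to show where a list was split or dim. The 101 member probes kept their gene names from the scanner files. In RefSeq 97 of them matched by accession and 4 by symbol, and positions are mm9, per the file headers. Alternatives changed the scaling, background correction, filter, choice of probe, moderation, blocks and arrays used. A genome of the array's build and protein sequences were not used here.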

Additional observations from a re-analysis of the deposited data

How the results depend on the processing

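The count of members past the adjusted threshold was 0 in every alternative run. The members' median stood above that of all genes in each, except with no filter on dim probes, where members minus all genes was -0.0062 over 36084 genes. With median scaling 0 of 75 members were higher, against 13% of all genes. The subunit medians there were -0.22 for the large and -0.21 for the small subunit. Values by gene in this section are for the named members only. By gene the differences there were -0.0184 for Mrpl1, -0.0334 for Mrpl42, -0.0587 for Mrps28, -0.0843 for Mrps15, -0.11 for Mrpl2, -0.12 for Mrpl45, Mrpl46 and Mrps21, -0.14 for Mrpl51, -0.15 for Mrpl55, -0.17 for Mrps25, -0.18 for Mrpl12, -0.19 for Mrpl23, Mrpl41 and Mrps34, -0.20 for Mrps27, Mrps30 and Mrps6, -0.21 for Mrpl44, -0.22 for Mrpl11, Mrpl27, Mrps2 and Mrps7, -0.23 for Mrps18a and Mrps22, -0.24 for Mrps12 and Mrps16, -0.25 for Mrps23, -0.26 for Mrps18b, -0.28 for Mrpl16, -0.29 for Mrps5, -0.30 for Mrpl3 and Mrpl35, -0.34 for Mrpl10, -0.38 for Mrps14, -0.39 for Mrps18c, -0.41 for Mrpl33 and -0.42 for Mrpl20 and Mrpl24. Every gene moved alike there, since the scaling subtracts 1 number from each array. Over all 75 members, 58 were higher with the slide row as a block, 71 with quantile scaling and 66 without control array 2. Members that turned but are not among the named ones are not listed. For the other signs that turned among the named members, the cause was not tested. They were Mrpl16 at -0.0252, Mrpl20 at -0.0947, Mrpl33 at -0.0097, Mrpl35 at -0.0873, Mrps14 at -0.0454 and Mrps18c at -0.0407 with the slide row as a block. With quantile scaling they were Mrpl20 at -0.0714, Mrpl24 at -0.0322 and Mrpl33 at -0.0865, and in the authors' normalised table Mrpl20 at -0.0719, Mrpl24 at -0.0325 and Mrpl33 at -0.0869. With normexp they were Mrpl20 at -0.0744, Mrpl24 at -0.0524 and Mrpl33 at -0.11 under quantile scaling and Mrpl24 at -0.0017 under the 75th percentile, and with array weights Mrpl24 at -0.019 and Mrps18c at -0.023. Without control array 2 and antagomir array 3 together, chosen after seeing the data, they were Mrpl24 at -0.0024 and Mrpl35 at -0.004. Leaving out each array in turn gave -0.0132 to 0.13 for Mrpl20, -0.0261 to 0.16 for Mrpl33, -0.0166 to 0.30 for Mrpl35, -0.0169 to 0.15 for Mrps14 and -0.0566 to 0.17 for Mrps18c. The large-subunit median ran from 0.0931 to 0.34 and the small from 0.0778 to 0.35, lowest without control array 2. The labels number the arrays 1 to 3 in each group. Deviations of same-numbered arrays from their group means correlated at 0.222, 0.142 and -0.0486 across genes, and 4 of 6 arrays correlated best with their own number. Whether same-numbered arrays were paired cannot be told from these values. With the replicate block the count of members past the threshold was 0, and that of all genes went from 3 to 0. All genes past it numbered 199 with median scaling, 8 with array weights, 6 with every probe on its own and 0 to 3 in the other alternatives. At an unadjusted limma p under 0.05 members numbered 0 to 2. The number of arrays, 3 a group, limits the precision.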
